A study of Mus musculus with 14 samples.

Results

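Fat cell transcripts were followed through 14 mouse lungs by 8 genes: Adipoq, Retn, Lep, Cfd, Plin1, Cidec, Fabp4 and Scd1. They were chosen by name from adipocyte biology after earlier results of these arrays had been seen, and were found by the RefSeq accession of each probe. All 8 are on the array, through 11 of its 56605 probes, and all 8 passed the filter on dim probes, among 30579 genes tested. Because these arrays were in view when the genes were proposed, their levels and differences are given here as a description.

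The study asked what carbon fibre does to the lung 1 month after a dose of 200 µg per mouse into the trachea, and whether the recycling stage of the fibre matters. Every mouse was a male C57BL/6N. The groups were 3 mice given carbon fibre before recycling (VCF), 3 given the fibre after carbonization (CCF), 3 given it after firing (RCF), and 5 controls given the PBS vehicle alone. RNA of the removed lung was labelled with 1 dye (Cy3) and hybridised with 1 array per mouse, so each value averages every cell type in the tissue taken and whatever tissue came with it.

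White adipocytes store triglyceride in a single large lipid droplet and release hormones into the blood. Healthy lung parenchyma holds few such cells, but fat surrounds the heart, the hilum and the mediastinum, where the lung is cut free. Brown fat, which burns lipid to make heat through the uncoupling protein Ucp1, lies between the shoulder blades and along the large vessels of the chest. Several of the 8 genes are not particular to fat: capillary endothelium and macrophages also use Fabp4, and alveolar type 2 cells, which make surfactant lipid, use Scd1. In whole-lung RNA, fewer cells of a type and less RNA per cell cannot be told apart.

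Levels below are log2 of the processed signal minus the array's own 75th percentile, so that 0 is that percentile and a step of 1 is a doubling. They are compared between arrays for 1 gene, never between genes. The 75th percentile of intensity lay between 891 and 2953 on 11 arrays and was 277, 323 and 375 on VCF 1, CCF 2 and RCF 1, which were dim. Arrays sat on 3 slides. Slide 1 held VCF 1 and 2, CCF 1 and 2, RCF 1 and control 1 and 2. Slide 2 held VCF 3, CCF 3 and control 3, and slide 3 held RCF 2 and 3 and control 4 and 5. Slides 1 and 2 were scanned on the same day and slide 3 on another day. All 8 genes listed for lung identity, among them the surfactant gene Sftpc and the type 1 cell gene Ager, were well above background on all 14 arrays. Each member was well above background on all 14 arrays too, except Plin1, which missed that mark on CCF 2. Control 2 stood apart from every other lung by its skeletal muscle and brown fat genes, described below, and the results that rest on it are given with and without it.

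Promoters of 3 members that moved together and of Lep, which did not move with them, are shown for their sequence. RefSeq (GRCm38.p6) gave a window for 6 of the 8 genes, from 250 bases before the start to 50 after it. The windows shown are chr16:23146286-23146585 (plus strand) for Adipoq, chr7:79732727-79733026 (minus strand) for Plin1, chr8:3655520-3655819 (plus strand) for Retn and chr6:29059971-29060270 (plus strand) for Lep. Capitals mark matches, on either strand, to 5 motifs: TATAAA, the nuclear receptor half-site AGGTCA, the CCAAT box CCAAT, the C/EBP core TTNNGNAA and the GC box GGGCGG.
Adipoq promoter: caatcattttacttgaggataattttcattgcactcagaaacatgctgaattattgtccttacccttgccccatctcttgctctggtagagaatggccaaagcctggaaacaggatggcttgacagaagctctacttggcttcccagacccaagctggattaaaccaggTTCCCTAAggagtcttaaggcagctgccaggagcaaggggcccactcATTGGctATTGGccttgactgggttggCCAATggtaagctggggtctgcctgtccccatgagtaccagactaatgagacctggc
Plin1 promoter: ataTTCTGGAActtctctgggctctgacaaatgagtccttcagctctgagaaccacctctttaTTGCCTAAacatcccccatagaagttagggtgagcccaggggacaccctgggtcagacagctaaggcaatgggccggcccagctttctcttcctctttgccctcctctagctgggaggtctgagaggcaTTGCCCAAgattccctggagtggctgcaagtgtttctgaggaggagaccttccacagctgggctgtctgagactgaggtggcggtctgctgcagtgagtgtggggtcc
Retn promoter: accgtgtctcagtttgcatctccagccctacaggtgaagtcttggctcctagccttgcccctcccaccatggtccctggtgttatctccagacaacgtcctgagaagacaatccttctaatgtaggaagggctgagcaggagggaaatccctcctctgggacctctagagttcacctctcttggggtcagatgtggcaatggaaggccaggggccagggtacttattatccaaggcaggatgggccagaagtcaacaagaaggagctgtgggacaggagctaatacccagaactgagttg
Lep promoter: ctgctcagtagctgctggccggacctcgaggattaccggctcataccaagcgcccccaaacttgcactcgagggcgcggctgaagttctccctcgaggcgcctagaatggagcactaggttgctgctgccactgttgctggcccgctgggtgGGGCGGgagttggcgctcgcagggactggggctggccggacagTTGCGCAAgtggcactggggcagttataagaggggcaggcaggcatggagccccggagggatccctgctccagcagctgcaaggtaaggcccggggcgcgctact
Adipoq held 3 CCAAT matches and 1 match to TTNNGNAA, and Plin1 held 3 matches to TTNNGNAA. Retn held none of the 5 motifs in this window. Lep held 1 match to TTNNGNAA and 1 to GGGCGG. No matches overlapped. Of 32851 mouse promoters of the same length, 37.4% held CCAAT, 40.7% TTNNGNAA, 35.7% GGGCGG, 16.3% AGGTCA and 13.6% TATAAA, so such matches are common.

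The hormones came first. Adipoq encodes adiponectin, which raises insulin sensitivity and is made almost solely by fat cells. Its levels were 0.59, 3.14 and −0.44 across VCF 1 to 3, 1.66, −2.65 and 0.20 in CCF 1 to 3, 0.45, 0.39 and −1.35 in RCF 1 to 3, and −2.37, 3.71, 0.65, −2.54 and −0.63 in control 1 to 5. VCF 2 and control 2 stood highest and CCF 2 and control 4 lowest, and every fibre array but CCF 2 lay inside the range of the controls. On CCF 2, a dim array, Adipoq read 51.3 intensity units. The 14 lungs spanned 82.6-fold, and the 5 controls alone spanned 76.4-fold. Against that spread the VCF mean was 1.34 ± 1.43 (SE) above control, CCF −0.026 ± 1.43 and RCF 0.065 ± 1.43, in log2.

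Retn encodes resistin, a hormone that mouse adipocytes secrete. It stood at −0.63, 1.39 and −0.71 in VCF 1 to 3, at 0.33, −2.95 and −0.93 in CCF 1 to 3, at −0.31, −0.061 and −1.09 in RCF 1 to 3, and at −1.93, 1.98, 0.25, −1.92 and −0.55 in control 1 to 5. The same pair of lungs, VCF 2 and control 2, held the top, CCF 2 again held the bottom, and the groups overlapped. Its 2 probes followed each other at r = 0.995 over the 14 arrays. The differences from control were 0.45 ± 0.95 in VCF, −0.75 ± 0.95 in CCF and −0.055 ± 0.95 in RCF.

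Cfd encodes adipsin (complement factor D), a protease of the alternative complement pathway that fat releases in quantity. Cfd reached 4.08, 6.21 and 3.39 across VCF 1 to 3, 5.13, 0.98 and 4.04 in CCF 1 to 3, 4.23, 4.74 and 3.70 in RCF 1 to 3, and 2.28, 6.73, 4.53, 2.65 and 4.19 in control 1 to 5. Its order of lungs was close to that of Adipoq, with control 2 first, VCF 2 second and CCF 2 last. The range over all arrays was 53.7-fold, and its 2 probes ran in parallel (r = 0.998). From control it differed by 0.48 ± 1.10 in VCF, −0.69 ± 1.10 in CCF and 0.15 ± 1.10 in RCF.

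The lipid droplet proteins came next. Plin1 encodes perilipin, which coats the droplet of fat cells and gates lipolysis. Plin1 measured −0.50, 1.56 and −1.59 across VCF 1 to 3, 0.78, −3.87 and −1.09 in CCF 1 to 3, −0.76, −0.86 and −2.55 in RCF 1 to 3, and −2.86, 3.06, −0.20, −3.36 and −1.47 in control 1 to 5. Control 2 was highest and CCF 2, where the probe was not well above background, lowest, so its span over the 14 lungs was at least 122-fold. Over the 5 controls, where it was well above background on each array, it spanned 85.6-fold, more than 99.8% of all genes tested. Every fibre array lay inside the range of the controls apart from CCF 2. The differences were 0.79 ± 1.42 in VCF, −0.43 ± 1.42 in CCF and −0.43 ± 1.42 in RCF, and the 95% interval for RCF ran from −3.53 to 2.67.

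Cidec helps small droplets fuse into the single droplet of a white adipocyte. Its levels ran 2.58, 4.20 and 2.09 across VCF 1 to 3, 3.50, 1.82 and 2.51 in CCF 1 to 3, 2.74, 2.71 and 2.06 in RCF 1 to 3, and 1.86, 4.72, 2.76, 1.82 and 2.09 in control 1 to 5. VCF 2 and control 2 were again highest, while CCF 2 and control 4 lay almost level at the bottom. Cidec spanned a narrower 7.46-fold, and it differed from control by 0.31 ± 0.68 in VCF, −0.038 ± 0.68 in CCF and −0.15 ± 0.68 in RCF.

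Fabp4 encodes the fatty acid carrier of the adipocyte cytosol. It lay at 3.67, 5.48 and 2.04 in VCF 1 to 3, at 4.73, 1.20 and 3.28 in CCF 1 to 3, at 3.52, 3.67 and 2.35 in RCF 1 to 3, and at 1.53, 6.98, 3.36, 1.61 and 3.12 in control 1 to 5. Control 2 was 2.82-fold above VCF 2, the next lung, and CCF 2 lay lowest, within a range of 54.7-fold. A second Fabp4 probe, dimmer by 5.59 in log2, followed the first at r = 0.897. On CCF 2 that probe was not well above background, at −6.18. It put control 1 (−2.13) above control 5 (−3.00), where the first probe had 1.53 and 3.12. By the first probe the differences from control were 0.41 ± 1.22 in VCF, −0.25 ± 1.22 in CCF and −0.14 ± 1.22 in RCF.

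**Figure D1:**
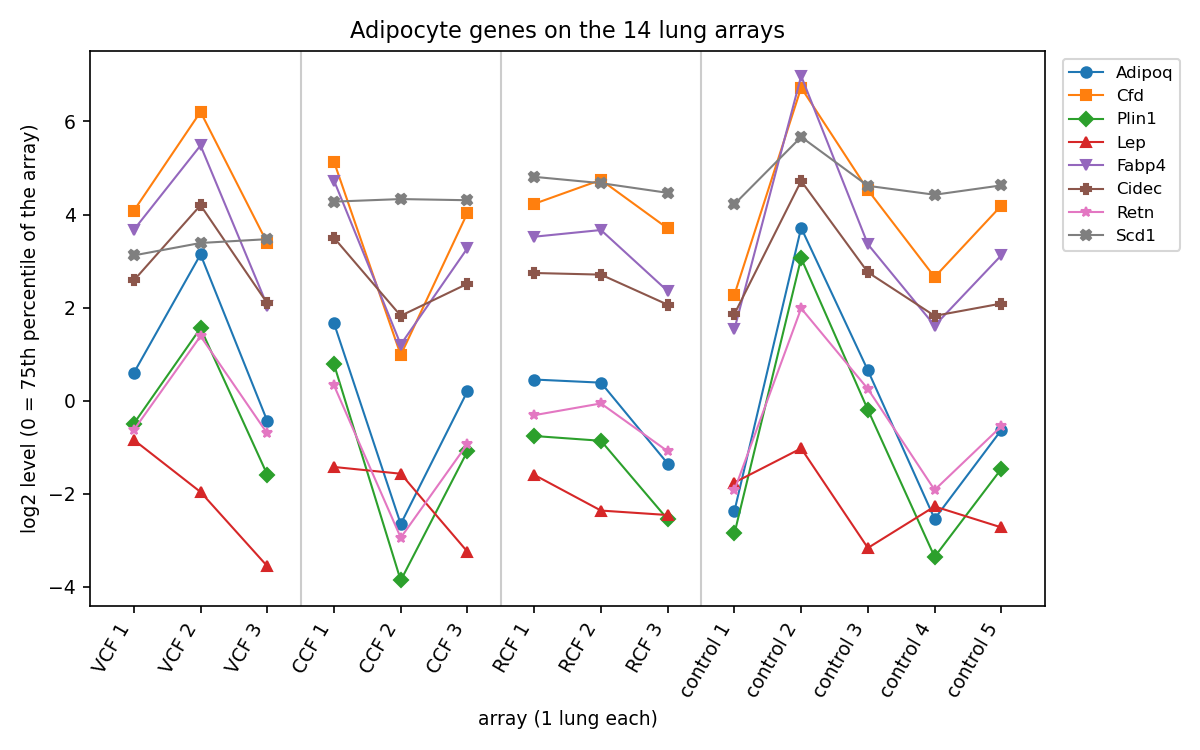
Level of the 8 adipocyte genes (y axis, log2 with 0 at the array's 75th percentile) on each of the 14 arrays (x axis, 1 lung each, VCF, CCF, RCF and then control); lines join lungs of 1 group. VCF 2 and control 2 stand highest and CCF 2 or control 4 lowest for 6 of the genes, while Lep and Scd1 follow other orders.

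Lep and Scd1 followed other orders of lungs. Lep encodes leptin, the hormone by which fat mass signals to the hypothalamus. It stood at −0.84, −1.96 and −3.56 in VCF 1 to 3, at −1.43, −1.57 and −3.25 in CCF 1 to 3, at −1.60, −2.36 and −2.46 in RCF 1 to 3, and at −1.76, −1.03, −3.17, −2.28 and −2.73 in control 1 to 5. VCF 1 and control 2 were highest and the 3 lungs of slide 2 lowest, with no order by group. The differences from control were 0.069 ± 0.64 in VCF, 0.11 ± 0.64 in CCF and 0.052 ± 0.64 in RCF.

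Sorted by slide, Lep fell into 3 ranges without overlap: −1.96 to −0.84 over the 7 arrays of slide 1, −3.56 to −3.17 over the 3 of slide 2 and −2.73 to −2.28 over the 4 of slide 3. Such a separation was seen in 1.93% of all genes, and in no other member. It was also present with quantile scaling, with normexp background correction and in the authors' deposited values, whereas with each array's median as the scale slide 1 began at 1.52 and slide 3 reached 1.54, so that these 2 touched. The Lep signal was low, at 102 to 601 intensity units. Its level correlated with log2 of the array's 75th percentile at r = −0.52 and rho = −0.53 over the 14 arrays, and at r = −0.28 without the 2 arrays farthest from the median. The part of slide and brightness in the Lep values was not tested.

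**Figure D2:**
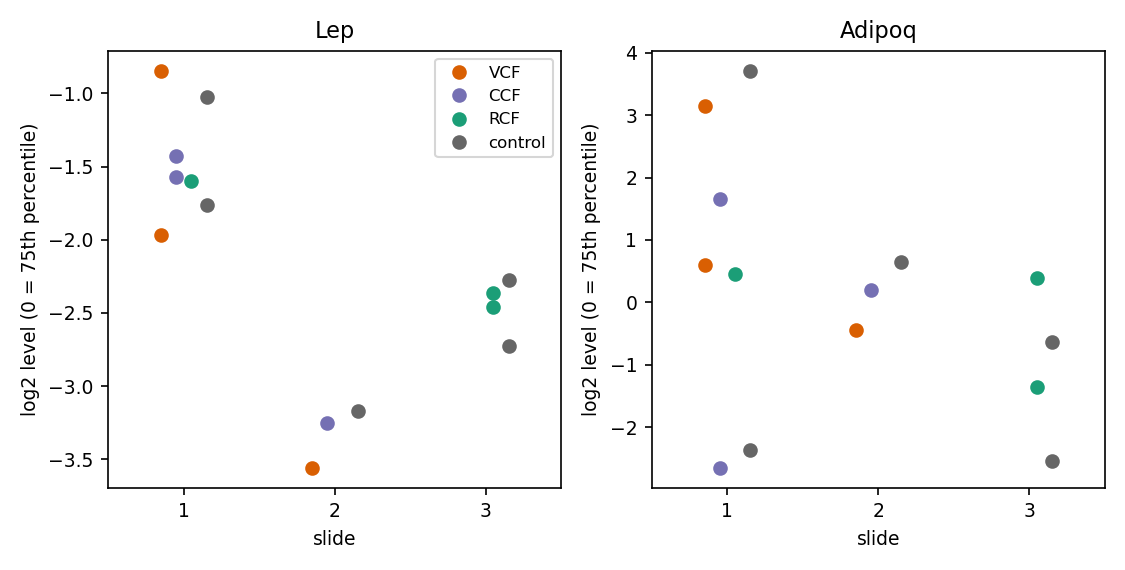
Lep (left) and Adipoq (right) levels (y axis, log2 with 0 at the array's 75th percentile) by slide (x axis), 1 point per array, coloured by VCF, CCF, RCF and control. Lep lies between −1.96 and −0.84 on slide 1, between −3.56 and −3.17 on slide 2 and between −2.73 and −2.28 on slide 3, while the Adipoq ranges overlap.

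Scd1 encodes stearoyl-CoA desaturase, which puts a double bond into newly made saturated fatty acids. Scd1 stood at 3.12, 3.39 and 3.47 in VCF 1 to 3, at 4.28, 4.33 and 4.31 in CCF 1 to 3, at 4.81, 4.67 and 4.47 in RCF 1 to 3, and at 4.22, 5.67, 4.62, 4.43 and 4.63 in control 1 to 5. All 3 VCF lungs lay below every other lung, control 2 lay above all, and CCF and RCF lay within the range of the controls. Of all genes, 3.91% had every VCF array below every control array. The VCF mean was 3.33 ± 0.18 (SD, n = 3) against 4.71 ± 0.56 in control (n = 5), 2.61-fold lower, a log2 difference of −1.39 ± 0.26 (SE) with a 95% interval of −1.96 to −0.81.

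In the fit over all genes Scd1 in VCF had an unadjusted p of 0.000216 and a limma adjusted p of 0.0816, over the threshold of 0.05. Of 25 other settings 3 brought it under the threshold: without control 2 the adjusted p was 0.0402 with a difference of −1.15, with slide as a random block it was 0.0471 with −1.45, and with probes above background on all arrays it was 0.0407. The other 22 gave 0.0609 to 0.383, among them slide as a fixed block (0.104 with −1.50), each array's median as the scale (0.240) and the replicate block (0.383). Within slide 1 the difference was −1.69 and within slide 2 it was −1.15. In CCF and RCF the Scd1 differences from control were −0.41 ± 0.26 and −0.062 ± 0.26.

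Between fibres, Scd1 was 0.98 ± 0.29 higher in CCF than in VCF (log2, limma adjusted p = 0.181) and 1.32 ± 0.29 higher in RCF than in VCF (adjusted p = 0.215). Every CCF array and every RCF array lay above every VCF array, as they did for 10.7% and 10.5% of all genes. RCF arrays also lay above all CCF arrays, a pattern of 8.82% of genes, with a difference of 0.34 ± 0.29 (adjusted p = 0.773). RCF 2 and RCF 3 were on slide 3, which held no VCF or CCF array and was scanned on another day. Fibre thus partly overlaps with slide and scan day in the RCF comparisons. Without control 2, which changes the shared estimate of spread, 1 member, Scd1, passed the threshold in CCF against VCF and in RCF against VCF.

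Counted over the 6 comparisons, none of the 8 genes passed an adjusted p of 0.05 in limma's fit. The share of all genes that did was 0.085% in VCF against control, 5.99% in CCF against control and 0.154% in RCF against control. Between fibres it was 0.222% in CCF against VCF, 0.00981% in RCF against VCF and 0.00327% in RCF against CCF. At an unadjusted p under 0.05, 1 member was lower in VCF than in control, none differed in CCF or RCF from control, and 9.96%, 23.7% and 12.9% of all genes did. Between fibres 1 member was higher in CCF than in VCF, 1 in RCF than in VCF and none differed between RCF and CCF at that level, which 13.8%, 9.05% and 9.26% of all genes reached. Nothing is read from these counts, because the same arrays were in view when the genes were chosen.

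The median difference of the 8 genes from control was 0.43 in VCF, −0.33 in CCF and −0.058 in RCF, beside all-gene medians of −0.0027, −0.0031 and 0.064. Of the 8 genes, 7 were higher and 1 lower in VCF, 1 higher and 7 lower in CCF, and 3 higher and 5 lower in RCF. Leaving out single lungs could turn the signs of these medians. The VCF median was −0.27 without VCF 2, and the CCF median was 0.43 without CCF 2 and 0.44 without control 2. Without control 2 the VCF median kept its sign, at 1.10. The RCF median was 0.23 without RCF 3 and 0.56 without control 2. Without control 2 the differences of Adipoq, Cfd, Plin1, Fabp4, Cidec and Retn ran from 0.83 (Cidec) to 2.32 (Adipoq) in VCF, from −0.15 to 0.96 in CCF and from 0.37 to 1.05 in RCF, and the lowest limma adjusted p among them was 0.493. Within slides the VCF median was 0.33 on slide 1 and −1.11 on slide 2, that of CCF −1.23 and −0.38 on the same slides, and that of RCF −0.31 on slide 1 and 0.65 on slide 3.

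**Figure D3:**
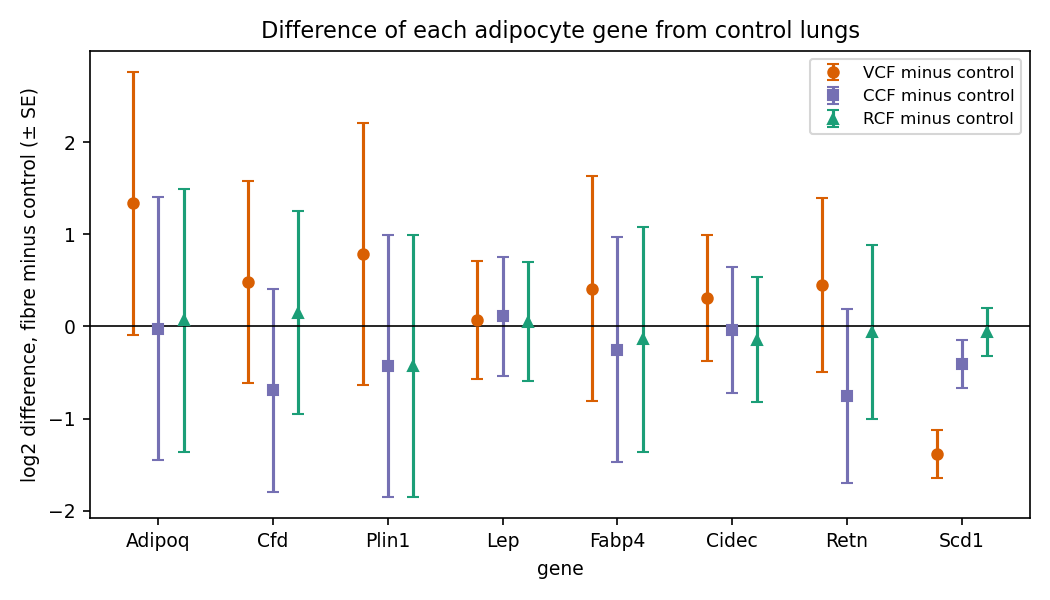
Log2 difference of each adipocyte gene from control (y axis, fibre minus control, bars ± SE from limma's fit of 14 arrays) for VCF, CCF and RCF (n = 3 each against 5 controls). Scd1 in VCF, at −1.39 ± 0.26, is the one point more than 2 SE from 0.

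Whether the genes moved together was read from their 28 pairs over the 14 arrays. For the 15 pairs among Adipoq, Cfd, Plin1, Fabp4, Cidec and Retn, Pearson's r ran from 0.894 (Cfd with Cidec) to 0.989 (Adipoq with Plin1) and Spearman's rho from 0.917 to 0.996. All points share the array scaling, and the split of the 8 genes into these 6 and the other two was made after their values were seen. With the group means removed r was 0.918 to 0.996, within the 7 arrays of slide 1 it was 0.956 to 0.997, and without control 2 it was 0.861 to 0.988. Without the 2 arrays farthest from the median, r remained 0.823 to 0.988. Slides 2 and 3, with 3 and 4 arrays, are too few for a value of their own.

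The order of the lungs was nearly the same for these 6 genes. Control 2 ranked first in 6 of 6, VCF 2 second in 6 of 6 and CCF 1 at the third place in 6 of 6. CCF 2 was last in 5, and for Cidec control 4 was last with CCF 2 next to it. Averaged over the 6 genes, each centred on its own mean, VCF 1 to 3 stood at 0.19, 2.22 and −0.64, CCF 1 to 3 at 1.25, −2.35 and −0.10, RCF 1 to 3 at 0.21, 0.32 and −0.92, and control 1 to 5 at −1.69, 3.09, 0.45, −1.73 and −0.31. High and low lungs occurred with and without fibre, and the controls alone ran from −1.73 to 3.09. For single genes the range over the 5 controls alone was 7.46-fold for Cidec to 85.6-fold for Plin1. The median gene ranged over 0.89 in log2 across the controls, where these 6 ranged over 2.90 to 6.42.

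Lep and Scd1 did not share this order. Lep correlated with the 6 genes at r = 0.142 to 0.395 and rho = 0.182 to 0.385, and without control 2 at −0.093 to 0.203. Scd1 correlated with them at r = 0.108 to 0.261 and rho = 0.059 to 0.310, and without control 2 at −0.326 to −0.157. With group means removed Scd1 reached r = 0.626 to 0.737, but 0.258 to 0.408 when control 2 was left out as well. The likeness of Scd1 to the other genes within groups thus rested largely on control 2, the lung that was highest for Scd1 and for all 6.

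**Figure D4:**
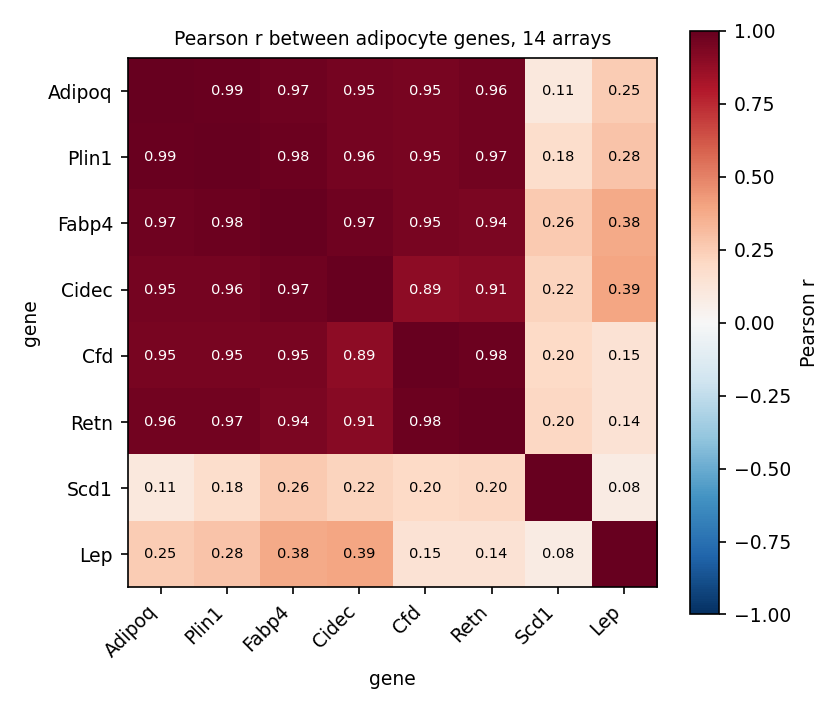
Pearson's r between each pair of the 8 adipocyte genes over 14 arrays (colour and printed value, both axes list the genes). The block of 6 genes holds 0.89 to 0.99, and the Scd1 and Lep rows hold 0.08 to 0.39.

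Genes outside the 8 with the most similar pattern were ranked by r with the mean of the 8, among 13380 named genes that were well above background on all arrays. The 10 nearest were Mrap (r = 0.987), Plin4 (0.982), Adig (0.972), Thrsp (0.971), Car3 (0.964), Ephx2 (0.963), Pck1 (0.960), Aoc3 (0.941), Cpe (0.940) and Aqp3 (0.939). Plin4 is a droplet coat protein, Adig is adipogenin and Pck1 makes the glycerol backbone of stored fat. In each of the 10 control 2 was the highest lung, and without it their r with the mean of the 8 was 0.895 to 0.980. In all, 18 of the 13380 genes (0.135%) reached r of 0.9. With group means removed 58 (0.433%) did, and the first 10 then included Gsto1 (0.976) and Cluh (0.970), whose r over all arrays without control 2 was 0.812 and 0.379.

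Among 28 other white adipocyte genes, 10 had r of at least 0.8 with the mean of the 8, and their median r was 0.769, beside 0.737% of all named genes at that level and a median r of 0.0157. These 10 included Slc2a4, the insulin-regulated glucose transporter (0.919), Dgat2, which joins the last acyl chain to triglyceride (0.901), and Gpd1 (0.860). For Slc2a4, Dgat2 and Gpd1, control 2 lay 3.81-fold, 2.74-fold and 4.11-fold above VCF 2, the next lung. The count of 10 and the median r include control 2, and what it adds to them was not tested. The lowest of the 28 were Mest (−0.184), Gpam (−0.151), Npr3 (−0.077), the lipase inhibitor Angptl4 (0.291) and the fatty acid receptor Cd36 (0.295). Capillary endothelium also carries Cd36. None of the 28 passed limma's test in VCF, CCF or RCF against control, and their median differences were 0.056, 0.064 and −0.13. At an unadjusted p under 0.05, 1 was higher in VCF, 1 higher in CCF and 0 differed in RCF. Of all genes, 9.96%, 23.7% and 12.9% differed at that level. Their mean level followed the mean of the 6 co-moving genes at r = 0.951 and rho = 0.934, and at r = 0.938 without control 2.

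Brown fat and muscle genes moved with some of the same lungs. Of 12 brown adipocyte genes 10 passed the filter on dim probes, and their mean followed that of the 6 genes at r = 0.825 and rho = 0.776 (0.748 without control 2). Ucp1, which is defining for brown fat, was well above background on 6 arrays: VCF 2, CCF 1, RCF 2, RCF 3, control 2 and control 5. Its level was −1.34 in VCF 2 and 3.96 in control 2, 39.4-fold higher there than in VCF 2, the next lung. Cidea, a droplet protein of brown fat, was 2.83 in VCF 2 and 5.48 in control 2, and it lay between −1.20 and 0.97 on the other 12 arrays. The brown list mean was 0.670 in VCF 2, 0.795 in CCF 1 and 2.98 in control 2, and lower elsewhere. Within this list CCF 1 was the highest lung for Ckmt1 and the next after control 2 for Cpt1b and Otop1, but not for Ucp1 or Cidea. The part of muscle in the brown list mean was not tested.

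Each of 10 skeletal muscle genes was highest in control 2. Several were dim elsewhere: Myh4 was well above background on 3 arrays, Actn3 on 4, Myh1 on 5 and Pvalb on 6. The list mean on the other arrays thus rests in part on signals near background. It was at most 0.257 there, in RCF 1, and 5.41 in control 2. Acta1, skeletal actin, was 28.8-fold above the next lung, and the gap ran from 1.21-fold for Atp2a1 to 306-fold for Tnnc2. The list followed the 6 adipocyte genes at r = 0.678 and rho = 0.653, and at r = 0.539 without control 2. Cardiac muscle genes, 11 in number, followed the 6 adipocyte genes at r = 0.739 and rho = 0.824 (0.724 without control 2). Their list mean was highest in CCF 1, at 1.26, then 0.98 in control 3, 0.90 in control 2 and 0.89 in control 5. The mean of the 6 adipocyte genes was 0.45 in control 3 and −0.31 in control 5. Mesothelial genes (8) followed at r = 0.593 and were highest in VCF 2, at 0.886. The part of brown fat, muscle or mesothelium in the levels of the 8 genes was not tested.

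Lists of lung cells, of thymus and of lung identity were set against the same 6 genes. The mean of 12 alveolar type 2 genes correlated with the 6 genes at r = −0.345 and lay between −0.23 and 0.33 on all arrays. For 12 capillary endothelial genes r was −0.422, for 12 alveolar macrophage genes 0.180, for 10 lipofibroblast genes −0.674, for 4 measured thymus genes −0.112 and for the 8 lung identity genes −0.0058. Without control 2 these values were −0.455, −0.281, 0.124, −0.487, −0.655 and −0.216. The array means of these lists share the scaling and the RNA of each lung with the 6 genes. The part of lung cells in the levels of the 8 genes was not tested.

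**Figure D5:**
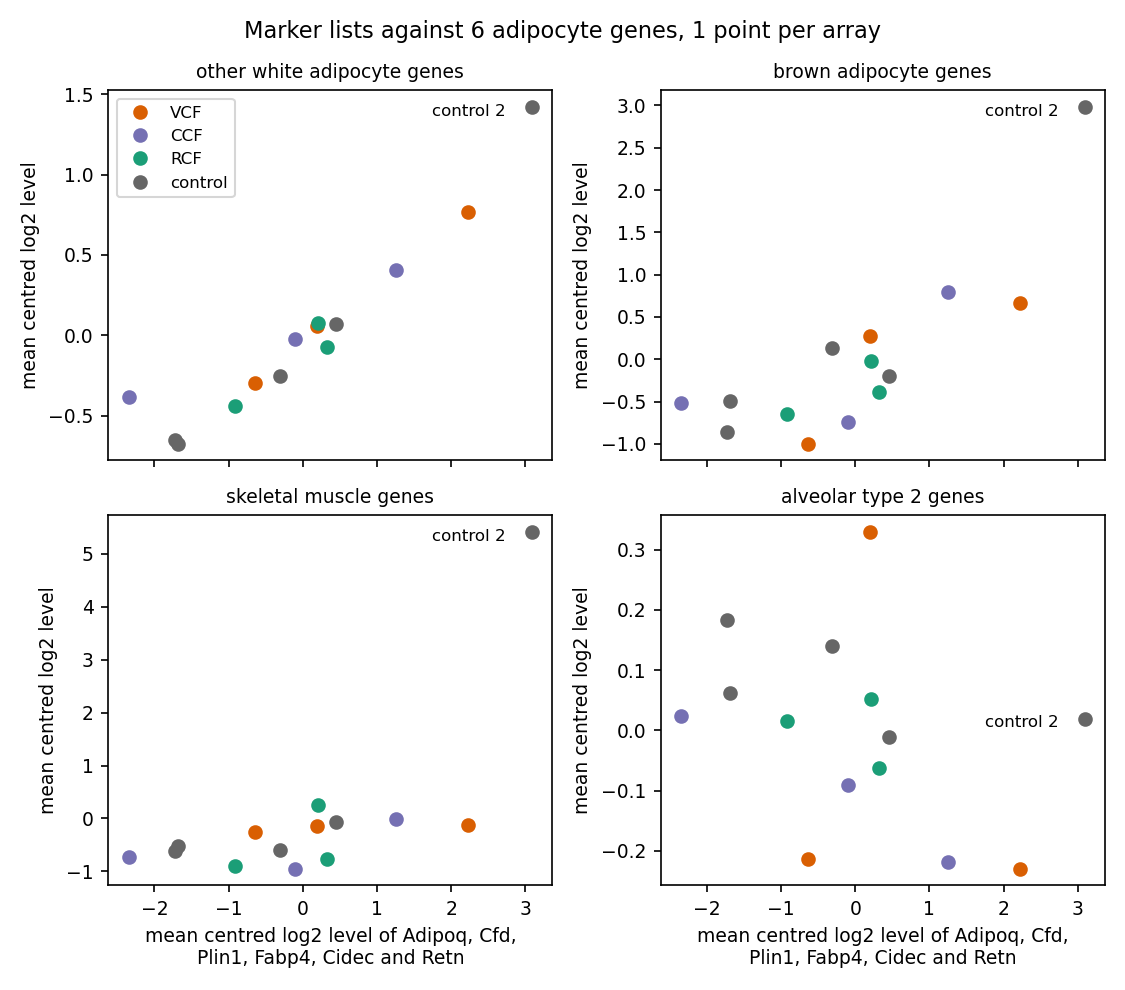
Mean level of 4 marker lists (y axes, log2, each gene centred on its mean over the arrays) against the mean of Adipoq, Cfd, Plin1, Fabp4, Cidec and Retn (x axes), 1 point per array, coloured by VCF, CCF, RCF and control. White adipocyte genes follow the x axis (r = 0.951), skeletal muscle genes stand at 5.41 in control 2 only, and alveolar type 2 genes stay between −0.23 and 0.33.

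Fatty acid synthesis, the pathway that feeds Scd1, was described by 16 genes. In VCF and RCF none of them passed limma's test against control. At an unadjusted p under 0.05, 1 each was lower, a level that 9.96% and 12.9% of all genes reached. In CCF 1 passed and was lower, Elovl6, which lengthens saturated acyl chains, where 5.99% of all genes passed. Elovl6 levels were 3.78, 2.31 and 1.75 across VCF 1 to 3, 0.54, 1.41 and −0.13 in CCF 1 to 3, 1.70, 2.78 and 2.97 in RCF 1 to 3, and 3.35, 3.91, 2.42, 4.09 and 4.50 in control 1 to 5. All 3 CCF lungs lay below every control, as they did for 6.46% of all genes. The difference was −3.05 ± 0.57 (limma adjusted p = 0.0155), and the call was lost without CCF 1, without CCF 3 and with a replicate block, where the adjusted p reached 0.118. The Elovl6 differences in VCF and RCF were −1.04 ± 0.57 and −1.17 ± 0.57. Fasn, the synthase itself, lay between 5.39 and 6.13 on the other arrays and at 7.23 in control 2, and the list mean followed the 6 genes at r = 0.659, but at 0.356 without control 2.

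In CCF the brown fat list also held 1 gene below control, Ppargc1a, a coactivator of mitochondrial genes that muscle and other tissues share, at −1.03 ± 0.19 (limma adjusted p = 0.0155). Its levels were −0.41, −0.45 and −0.53 across VCF 1 to 3, −1.54, −1.61 and −1.38 in CCF 1 to 3, −1.34, −0.73 and −0.49 in RCF 1 to 3, and −0.58, −0.38, −0.35, −0.85 and −0.23 in control 1 to 5. Every CCF lung lay below every control, a pattern of 6.46% of all genes. The r of Ppargc1a with the mean of the 8 was 0.225. Its call was lost without CCF 1 or CCF 2, with each array's median as the scale and with a replicate block. There the limma adjusted p reached up to 0.168. Of the other lists, in CCF against control Tek and Ednrb of capillary endothelium, Siglecf of alveolar macrophages and Fgf10 of lipofibroblasts were higher and Wnt2 of lipofibroblasts was lower. Of all genes, 5.99% were called in CCF against control. All 5 of these list genes lost their call under at least 10 of 25 other settings. In VCF and RCF against control no list had a gene past the threshold. The lists held 4 to 28 measured genes. At an unadjusted p under 0.05 a list held 0 to 2 genes in VCF and 0 to 5 in RCF, beside 9.96% and 12.9% of all genes. The 5 in RCF were of 12 alveolar macrophage genes, all higher. In CCF that list held 6 of 12, all higher, where 23.7% of all genes reached that level. Nothing is read from these counts.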

How the data were processed

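RNA of 14 mouse lungs was measured on one-colour Agilent arrays with 62976 spots, of which 3671 were controls. Scans were quantified by Feature Extraction 10.7.3.1, per the file headers. Its processed signal was deposited as intensity, with the background subtracted and without scaling between arrays. A value table of the whole series, deposited by the authors, holds log2 values. Every column equals log2 of that array's processed signal less a constant (100% of values within 0.01), so scale and direction are known and genes are not centred, while the sources used here do not say where the constants came from. Its column medians were 0.30, −0.30 and −0.37 for VCF 1 to 3, −0.36, 0.16 and −0.34 for CCF, −0.17, −0.52 and −0.49 for RCF, and −0.052, −0.030, −0.29, −0.50 and −0.49 for control 1 to 5.

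From the array files log2 of the processed signal minus the 75th percentile of each array was computed. Outlier spots were left out, spots of a probe averaged, and probes kept that were well above background on at least 3 of 14 arrays (37984). Genes with several probes were represented by the probe of highest mean, and symbols came from RefSeq accessions (32994 probes). Limma 3.58.1 (R 4.3.3, files read by data.table, release 1.17.8) was fitted to 30579 genes and 14 arrays, 4 groups sharing the spread, with moderated two-sided tests, Benjamini-Hochberg adjustment over all genes and a threshold of 0.05. The scripts were tested on simulated data.

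Per the labels the samples are biologically independent. The number of arrays limits the precision. The 8 genes, the 12 marker lists (143 genes), the tests and the alternatives were chosen with earlier results of these data known. Named are the 8 genes, list genes past the threshold or of smallest p, and the 10 genes most like the mean of the 8, over all arrays and with group means removed. Other genes were named after their values were seen: Slc2a4, Dgat2, Gpd1, Cd36, Mest, Npr3, Fasn, Acta1, Cidea, Ucp1, Sftpc and Ager. The array was designed on an older assembly, so probes have no positions here. The mean signal was not in the files used here, and the median signal took its place in the normexp alternative (offset 50).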

Additional observations from a re-analysis of the deposited data

Results flagged for a closer look

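Scd1 in control 2 stood at 5.67 in log2, apart from the other 4 controls. Its gap to the nearest control was 0.721 of the range of the group, above Dixon's critical value of 0.71 for 5 samples. Chance flags about 1 in 20 groups, and 8 genes were examined. Among the controls, Adipoq, Cfd, Plin1, Fabp4, Cidec, Retn and Lep were also highest in control 2. Their gaps were 0.343 (Lep) to 0.677 (Cidec) of the range. The Scd1 difference between VCF and control was −1.15 without that lung and −1.39 with it.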

How the results depend on the processing

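Of the counts of members past the threshold in 6 comparisons, 0 was found under each of 25 other settings with these exceptions. In VCF against control 1 member passed when only probes above background on all arrays were kept, 1 with slide as a random block, and 0 to 1 when single arrays were left out. In CCF against VCF and in RCF against VCF leaving out single arrays gave 0 to 1, and it was 1 without control 2. That member was Scd1 in VCF against control, with differences of −1.51 to −1.15 and adjusted p of 0.0402 to 0.383. When single arrays were left out the median of the 8 genes ran from −0.27 to 1.10 in VCF, −1.04 to 0.44 in CCF and −0.39 to 0.56 in RCF, and the median r of the 28 pairs from 0.868 to 0.946. Within slide 2 the VCF median was −1.11. With probes above background on all arrays Plin1 dropped out and the median r over 21 pairs was 0.395. A larger share of those pairs held Lep or Scd1. Fgf10 in CCF turned to −0.096 when all probes of a gene were averaged, and the cause was not tested.

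Arrays of the same replicate number in different groups had a median correlation of 0.181, over 0.1 in 12 of 18 pairs, against −0.035 and 11 of 54 for other numbers. Of the 12 arrays that share a number 5 correlated best with one of their own number. Replicate number largely followed slide. Arrays numbered 1 were all on slide 1, those numbered 2 on slide 1 apart from RCF 2, and those numbered 3 on slide 2 apart from RCF 3. RCF 2 and RCF 3 were on slide 3, as were control 4 and 5. The part of slide in these correlations was not tested. The labels tie no number to a shared animal or batch and not every pair passed 0.1, so no block was used in the fits reported. With a replicate block 0 members passed in each of the 6 comparisons, the member medians were −0.15 in VCF, −0.91 in CCF and −0.60 in RCF, and Scd1 in VCF stood at −1.51 (adjusted p = 0.383). Counts over all genes moved by more than 1.5 times. They were 26 in VCF, 1832 in CCF and 47 in RCF against control, and over 25 alternatives 0 to 97, 2 to 2953 and 0 to 468. Between fibres they were 68 in CCF against VCF (0 to 656), 3 in RCF against VCF (0 to 26) and 1 in RCF against CCF (0 to 25). Lowest signals limit what differences can be measured. They include Lep and, on CCF 2, Plin1 (22.1 intensity units), Retn (41.9) and Adipoq (51.3).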
